A study of Rattus norvegicus with 6 samples.

Results

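The 9 genes described here take up, bind, store or export lipid, and they were read in the pancreatic cells of 6 male Wistar rats as 9 of the 32883 genes in the single-cell count matrices. They were named by a fixed list, Lpl, Cd36, Fabp4, Fabp5, Plin2, Apoe, Pltp, Abca1 and Abcg1, which was chosen with earlier results of these data known. The rats formed 3 groups of 2: a young group sampled at 2 months of age, an old group kept on the normal diet for 18 months and sampled at 20 months, and an HFHF-old group kept on a high-fat high-fructose (HFHF) diet over the same 18 months and sampled at the same age of 20 months. By these labels the old and the HFHF-old rats differed in diet, while the old and the young rats differed in age and in time on the diet. The pancreas was digested with collagenase P, a density gradient was used to enrich islets, and single cells were captured with 10x Genomics 3' v3.1 chemistry, so the cells are those that survived this preparation and not a sample of the whole organ. Each rat gave 1 library, and p-values measure the spread between these samples.

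As background, lipoprotein lipase (Lpl) is secreted and cleaves triglycerides of circulating lipoproteins on the capillary wall, and Cd36 carries the released fatty acids, and oxidised lipoprotein, across the plasma membrane. Fabp4 and Fabp5 are cytosolic chaperones that bind fatty acids. Perilipin 2 (Plin2) coats the lipid droplets in which cells outside adipose tissue keep triglyceride and cholesterol ester. Apolipoprotein E (Apoe) is the apolipoprotein that macrophages secrete, phospholipid transfer protein (Pltp) moves phospholipid between lipoproteins, and the transporters Abca1 and Abcg1 pass cholesterol from cells to high-density lipoprotein. Macrophages that take up lipid are known to express many of these genes, and capillary endothelium is known for Cd36 and Fabp4.

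Promoters from RefSeq on the rat assembly GRCr8 were matched for 5 of the 9 genes, namely Cd36, Apoe, Plin2, Pltp and Abca1, and those of Lpl, Fabp4, Fabp5 and Abcg1 are not shown. Among the 5 matched genes, the 4 printed are Apoe, Pltp and Abca1, which had their highest class level in macrophage-like cells, and Plin2, whose macrophage-like levels are compared between the diets below. Each is the 250 bases before a transcription start, 5′ to 3′ on the strand of the gene, which is the minus strand for all 4, with capitals marking any match on either strand to AGGTCA (the core of many nuclear receptor sites), TATAAA or GGGCGG. They lie at chr1:88484700-88484949 (Apoe, 1 of 3 listed starts), chr3:174011983-174012232 (Pltp), chr5:72596474-72596723 (Abca1) and chr5:106229019-106229268 (Plin2, 1 of 2 listed starts).
Apoe: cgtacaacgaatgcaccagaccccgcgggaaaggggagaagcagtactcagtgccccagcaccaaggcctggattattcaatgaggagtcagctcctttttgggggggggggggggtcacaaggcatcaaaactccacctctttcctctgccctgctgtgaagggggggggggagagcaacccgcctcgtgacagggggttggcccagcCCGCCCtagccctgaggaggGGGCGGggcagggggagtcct
Pltp: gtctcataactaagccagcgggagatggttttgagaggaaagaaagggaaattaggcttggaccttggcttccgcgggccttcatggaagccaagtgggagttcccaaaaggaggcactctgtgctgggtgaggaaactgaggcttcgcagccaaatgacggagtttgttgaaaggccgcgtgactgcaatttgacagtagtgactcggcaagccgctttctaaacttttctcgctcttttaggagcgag
Abca1: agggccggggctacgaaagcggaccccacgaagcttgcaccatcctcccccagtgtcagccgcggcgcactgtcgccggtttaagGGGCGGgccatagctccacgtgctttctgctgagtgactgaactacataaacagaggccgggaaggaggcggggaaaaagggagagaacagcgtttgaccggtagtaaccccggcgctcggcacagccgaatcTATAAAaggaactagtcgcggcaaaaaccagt
Plin2: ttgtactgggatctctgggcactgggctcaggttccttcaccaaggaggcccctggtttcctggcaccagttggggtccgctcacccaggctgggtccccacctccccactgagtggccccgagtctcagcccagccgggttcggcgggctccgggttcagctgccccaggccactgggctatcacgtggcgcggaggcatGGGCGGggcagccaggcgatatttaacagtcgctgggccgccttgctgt
AGGTCA was in 0 of the 8 listed promoters of the 5 genes and in 14.1% of all 33469 rat promoters of the same length, TATAAA was in 12.9% of them and GGGCGG in 30.5%. These matches describe letters and not sites that were shown to be used.

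The libraries held 77387928 to 166875258 UMIs (unique molecular identifiers, 1 per captured transcript) and 75201 cells after filtering, and any 2 libraries shared 20 to 64 barcodes. Cells were clustered without batch correction and named from marker lists. The macrophage-like class was named with 10 markers, all of which were detected in each of the 6 rats, at a summed 15959 to 22804 CPM (UMIs per 1000000 UMIs). The fibroblast-like (8 markers), endothelial-like (8) and acinar-like classes (10) likewise had each of their markers in every rat. Since these lists also named the classes, their detection is not a separate check. Markers of other classes were found too. In the endothelial-like cells of HFHF-old replicate 1 the acinar markers summed to 18099 CPM and the endothelial markers to 11434. HFHF-old replicate 2 stood apart from the other libraries: 8152 of its 11716 cells were NK-like and it held 11 macrophage-like and 6 islet-like cells, against 969 to 5883 and 252 to 1075 in the other 5 rats. Fold changes for the diet are therefore given with and without it where the groups did not overlap in a class, and the effect of the diet was not tested in islet-like cells or in single macrophage clusters, for which 1 HFHF-old rat remained. Levels are CPM over the UMIs of the class in a rat. Because droplets also catch free RNA, each level was set against that of the lymphocytes (NK-like and T-like cells) of the same rat. For Plin2, Abca1 and Abcg1 the lymphocytes are not a background class, since the acinar-like cells of the same rat held at most 0.320, 0.277 and 0.128 times their level. Nor are they for Fabp5, of which the islet-like cells held at most 0.207 times their level.

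Macrophage-like cells carried Apoe, Pltp and Abca1, fibroblast-like cells carried Lpl, and endothelial-like cells carried Cd36, Fabp4 and Fabp5. Fibroblast-like Lpl ranged over the 6 rats from 779 to 2257 CPM, and its lowest rat was below the highest macrophage-like rat (35.8 to 1080.5) but above every endothelial-like rat (93.5 to 422). Cd36 spanned 581 to 1411 in endothelial-like and 161 to 377 in macrophage-like cells, and these ranges did not overlap. Endothelial-like Fabp4 spanned 3511 to 10019.7, above the smooth muscle-like cells (335 to 1379 in 5 rats) and the macrophage-like cells (39.9 to 2908), which overlapped each other. The range of Fabp5 was 327 to 1334 in endothelial-like and 43.1 to 1176 in macrophage-like cells, with overlap through HFHF-old replicate 2.

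Macrophage-like Apoe stood at 5044 to 24105 CPM. The next classes by their mean, mast-like cells (940.3 to 9964) and ductal-like cells (2784 to 5197 in 5 rats), overlapped its lower end. Macrophage-like Pltp (831 to 2220.4) lay above fibroblast-like (111 to 419) and endothelial-like Pltp (74.5 to 400.01) without overlap. Mast-like Pltp (182 to 1121) overlapped its lower end. Abca1 reached 186 to 527 in macrophage-like, 99.5 to 282 in endothelial-like and 66.4 to 175 in fibroblast-like cells, and the endothelial-like range overlapped each of the other 2, which did not overlap each other. Plin2 was spread over the myeloid classes, with medians that differed by less than their spread: neutrophil-like cells held 103 to 467, dendritic-like cells 146 to 288 and macrophage-like cells 143 to 1335. Abcg1 was highest by its mean in neutrophil-like cells (43.4 to 136), which were above the lymphocytes (29.0 to 68.2) of the same rat in 6 of 6 rats, by 1.25 to 2.25-fold. Endothelial-like Abcg1 (36.3 to 115) was above them in 6 of 6 rats and macrophage-like Abcg1 (24.99 to 75.0) in 4 of 6, and these ranges overlapped.

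**Figure D1:**
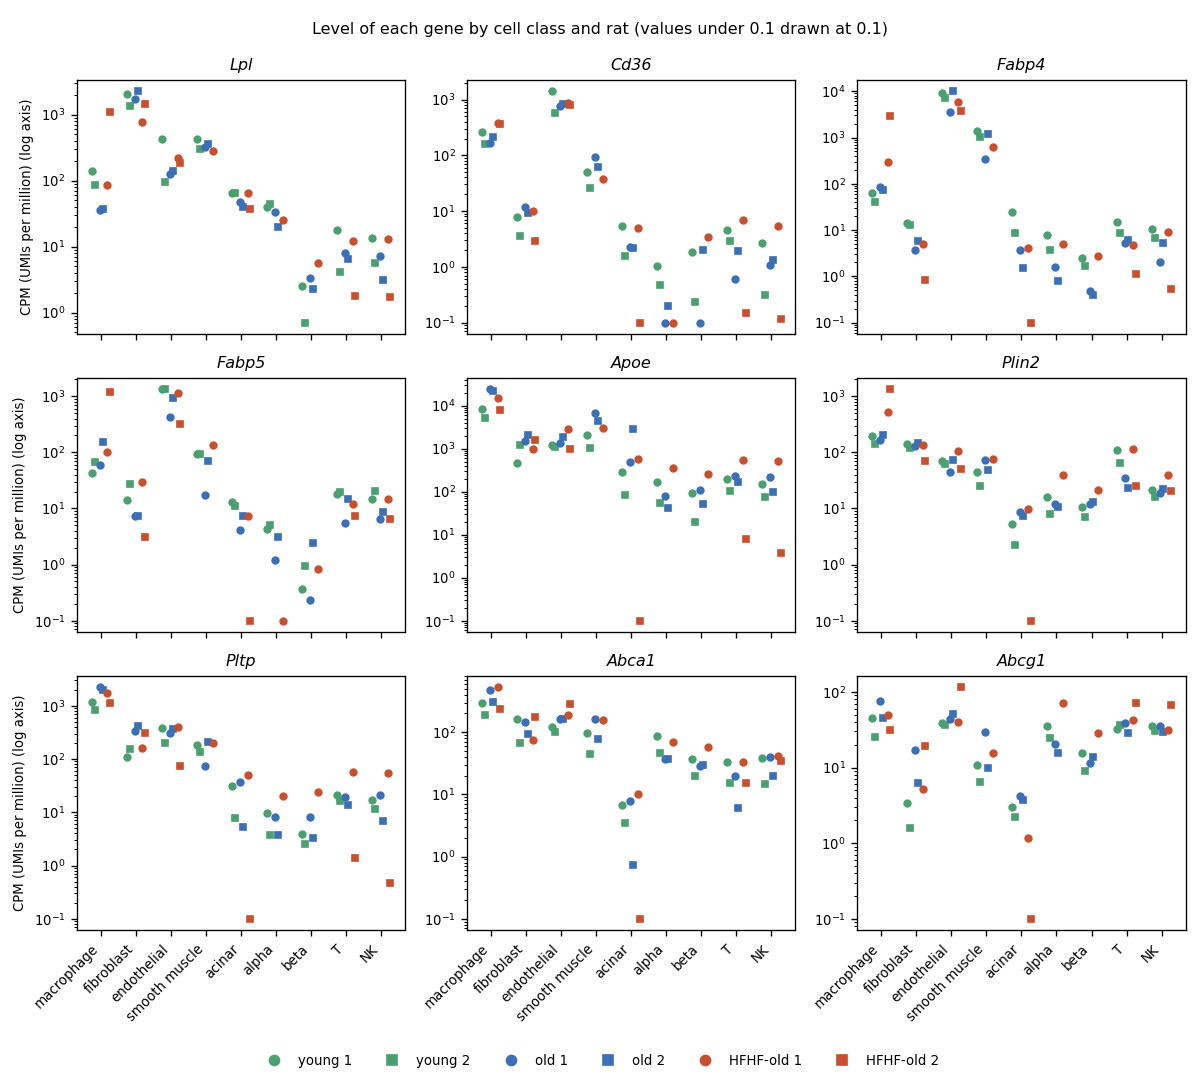
Level of each of the 9 genes (CPM, log axis) in macrophage-like, fibroblast-like, endothelial-like, smooth muscle-like, acinar-like, alpha-like, beta-like, T-like and NK-like cells. Each point is a rat with at least 10 cells of the class, coloured by group. Endothelial-like cells hold the highest Cd36 in every rat, and the macrophage-like Fabp4 of HFHF-old replicate 2 (2908) stands apart from the other 5 rats.

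For each class, UMIs were summed per rat and tested with edgeR's quasi-likelihood test over all genes. A gene was called where p, adjusted by the method of Benjamini and Hochberg for every gene in the fit, was under 0.05 and the change was over 1.5-fold in either direction. Counts of genes whose groups did not overlap were made on the counts scaled by TMM, edgeR's correction for composition, and can differ from the order of the CPM levels. None of the 9 genes was called by edgeR for the diet: 0 of 9 in macrophage-like cells (0% of all 11861 genes tested were called), 0 of 9 in fibroblast-like cells (0.00742%), 0 of 9 in endothelial-like cells (0%) and 0 of the 7 tested in acinar-like cells (0%). At an unadjusted p under 0.05 the counts were 4, 0, 0 and 0, against 8.86%, 7.05%, 4.31% and 3.54% of all genes. DESeq2 called 2 (Fabp4 and Plin2), 0, 0 and 0, against 1.64%, 0.938%, 0.0198% and 0.0437% of the genes to which it gave an adjusted p, which in macrophage-like cells were 2433. For age, edgeR likewise called 0 of 9 in macrophage-like (0.0169% of all genes), fibroblast-like (0.0223%), endothelial-like (0%) and islet-like cells (0.156%) and 0 of 7 in acinar-like cells (0%). The counts at an unadjusted p under 0.05 were 3, 2, 0, 2 and 2 in that order, against 8.25%, 6.57%, 3.69%, 6.52% and 1.73% of all genes. DESeq2 called 1 (Apoe), 1 (Pltp), 0, 0 and 0, against 0.315%, 1.13%, 0.109%, 0.508% and 0.0219%.

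**Figure D2:**
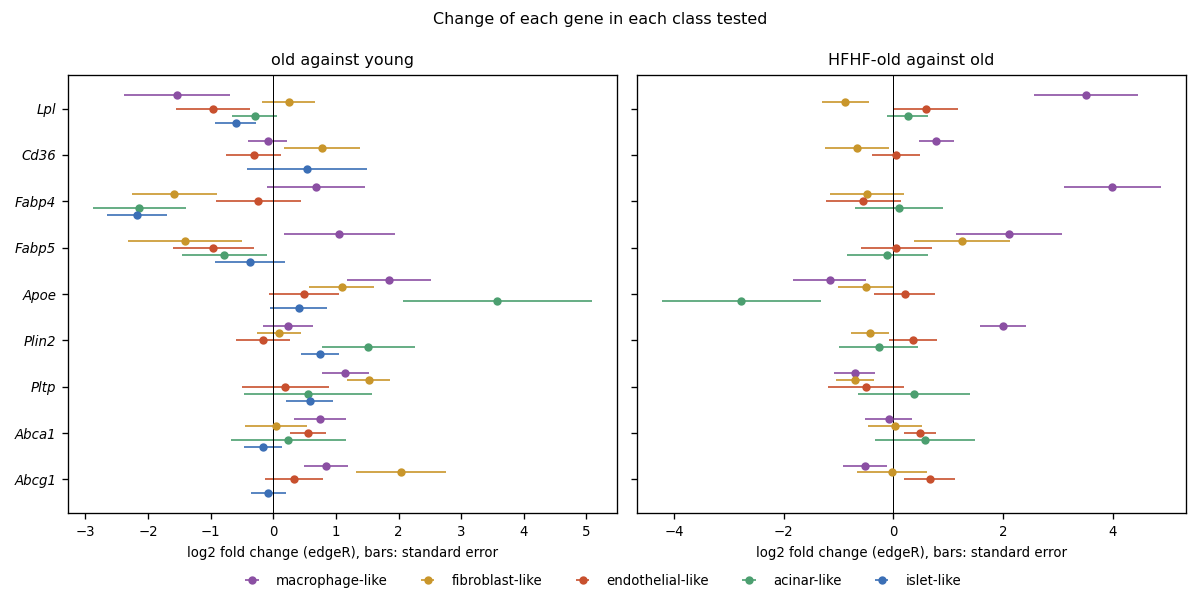
Log2 fold change of each gene with its standard error from edgeR, for HFHF-old against old and for old against young, by class. The 4 highest values for the diet are those of the macrophage-like Fabp4 (3.99), Lpl (3.52), Fabp5 (2.10) and Plin2 (1.99), and none of the points shown was called.

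In macrophage-like cells, 4 of the 9 genes were higher in both HFHF-old rats than in both old rats on the scaled counts (Lpl, Cd36, Fabp4 and Plin2) and 3 were lower in both (Apoe, Pltp and Abcg1, the last of which overlapped before scaling). Over all genes tested, 36.8% did not overlap between these groups. The class also differed in its clusters, which are described below: the Cd163 Lyve1 cluster held 82.1% of the macrophage-like cells of HFHF-old replicate 1, 9.09% of the 11 of HFHF-old replicate 2, and 45.8% and 6.61% of those of the old rats. The droplet protein Plin2 stood at 196 and 143 CPM in the young rats, 168 and 208 in the old rats and 523 and 1335 in the HFHF-old rats, a log2 fold change of 1.99 (SE 0.42, adjusted p = 0.245). The log2 fold change was 1.33 (adjusted p = 0.208) without HFHF-old replicate 2 and 2.48 (adjusted p = 0.0943) without HFHF-old replicate 1, and DESeq2 gave 2.04 (SE 0.45, adjusted p = 0.00116). Both HFHF-old rats lay above the other 4, whose levels ran from 143 to 208.

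Fabp4 stood at 63.9 and 39.9 CPM in the young rats, 84.5 and 73.5 in the old rats and 296 and 2908 in the HFHF-old rats, a log2 fold change of 3.99 (SE 0.88, adjusted p = 0.256). The lipase Lpl stood at 139 and 84.7 CPM in the young rats, 35.8 and 37.1 in the old rats and 86.1 and 1080.5 in the HFHF-old rats, with a log2 fold change of 3.52 (SE 0.95, adjusted p = 0.280). HFHF-old replicate 2, with 11 cells, had the highest value of both genes. Without it the log2 fold changes were 1.77 (adjusted p = 0.176) for Fabp4 and 1.10 (adjusted p = 0.272) for Lpl. With this rat as the lone HFHF-old sample they were 4.86 and 4.55 (adjusted p = 0.029 for both), which assumes that a lone rat varies as the other groups do. DESeq2 called Fabp4, at 4.09 (SE 1.11, adjusted p = 0.0242). For Lpl, HFHF-old replicate 1 lay within the range of the young rats. The fatty acid carrier Cd36 stood at 263 and 161 CPM in the young rats, 165 and 209 in the old rats and 377 and 365 in the HFHF-old rats, a log2 fold change of 0.78 (SE 0.32, adjusted p = 0.532), and 0.86 without HFHF-old replicate 2. Fabp5 overlapped between the groups at 43.1 and 66.7 CPM in the young rats, 60.2 and 152 in the old rats and 101 and 1176 in the HFHF-old rats.

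For the genes of lipoprotein handling and export, the HFHF-old rats had values below those of the old rats on the scaled counts for Apoe, Pltp and Abcg1. Apoe was measured at 8394 and 5044 CPM in the young rats, 24105 and 21542 in the old rats and 15182 and 7944 in the HFHF-old rats, a log2 fold change of -1.16 (SE 0.66, adjusted p = 0.695). Pltp followed the same order at 1165 and 831 CPM in the young rats, 2220.4 and 1974 in the old rats and 1751 and 1144 in the HFHF-old rats, a log2 fold change of -0.71 (SE 0.38, adjusted p = 0.669). Without HFHF-old replicate 2 these were -0.72 (adjusted p = 0.834) and -0.40 (adjusted p = 0.719). In both genes the HFHF-old rats lay between the young and the old rats or overlapped the young ones. In HFHF-old replicate 2, however, only 4 of the 11 macrophage-like cells had an Apoe UMI. Of its cells with at least 2000 UMIs, 1 held 317 of the 499 Apoe UMIs and 52 of the 71 Pltp UMIs. Another cell, with 32.5% of the class UMIs, had 0 of both, so the levels of this rat rest on few cells. Abca1 overlapped between old and HFHF-old rats at 299 and 186 CPM in the young rats, 469.8 and 306 in the old rats and 527 and 238 in the HFHF-old rats. Abcg1 had a log2 fold change of -0.52 (SE 0.40, adjusted p = 0.799) for the diet, -0.40 (adjusted p = 0.715) without HFHF-old replicate 2, which held 2 UMIs, and its level was 0.466 to 2.01 times that of the lymphocytes of the same rat.

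In the old and HFHF-old rats most of the macrophage-like Fabp4 UMIs sat in few cells, while in the young rats they were spread over more: 985 of the 5883 macrophage-like cells of young replicate 1 had a Fabp4 UMI and no cell had over 21. Each cell was thinned to 2000 UMIs, shallower cells being left out, and a cell with at least 3 Fabp4 UMIs was called Fabp4-rich, a limit set after the values had been seen. Such cells were 17 of 4326 and 2 of 1362 in the young rats, 7 of 861 and 7 of 1356 in the old rats, 30 of 2809 in HFHF-old replicate 1 and 1 of 7 in HFHF-old replicate 2. The shares were 0.393% and 0.147%, 0.813% and 0.516%, and 1.07% (exact binomial 95% interval 0.722 to 1.52, counting error only) in HFHF-old replicate 1, whose interval overlaps those of both old rats (0.327 to 1.67 and 0.208 to 1.06). In HFHF-old replicate 1 these 30 cells held 91.6% of the Fabp4 UMIs, 55.1% of the Lpl UMIs, 31.7% of the Fabp5 UMIs and 6.87% of the Plin2 UMIs. In the old rats they held 86.0% and 61.8% of the Fabp4 UMIs, and in the young rats 9.90% and 2.76%.

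Without the Fabp4-rich cells, Fabp4 stood at 53.6 and 36.3 CPM in the young rats, 12.2 and 31.6 in the old rats and 25.5 in HFHF-old replicate 1, and Lpl at 32.1 and 30.4 in the old rats and 39.3 in HFHF-old replicate 1. The lower Fabp4 follows from how the cells were chosen, while Lpl was not used to choose them. Plin2 was at 156 and 213 in the old rats and 496 in HFHF-old replicate 1 without these cells, so most of the Plin2 difference between these rats was in the other cells. In HFHF-old replicate 2 a single cell with 20446 UMIs, 32.5% of the class, held 177 of the 183 Fabp4 UMIs, all 68 Lpl UMIs, 62 of the 74 Fabp5 UMIs and 68 of the 84 Plin2 UMIs, and it had 0 Apoe UMIs.

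Companion genes, also chosen after values had been seen, were read in the same thinned cells. Spp1, Gpnmb and Trem2 are given here, with Gpnmb and Trem2 for HFHF-old replicate 1 alone. Cd9, Ctsd, Lgals3, Fn1, Lyve1, Cd163 and Fcna were also read and are not given, so the genes shown are a selection. In HFHF-old replicate 1, Spp1 (osteopontin, a secreted matrix protein) had a UMI in 66.7% of the Fabp4-rich and 1.69% of the other macrophage-like cells, Lpl in 70% and 6.05%, the lysosomal glycoprotein gene Gpnmb in 86.7% and 77.3%, and the lipid receptor Trem2 in 63.3% and 24.6%. The old rats, with 7 Fabp4-rich cells each, had Spp1 in 28.6% and 71.4% of them (2.11% and 1.93% of the others). Lpl was in 0% of these 7 cells in both old rats (6.91% and 4.15% of the others) once the cells were thinned. Over all UMIs, without thinning, the Fabp4-rich cells of HFHF-old replicate 1 held 1719 Lpl UMIs, or 2869.9 CPM against 39.3 in its other cells. In the young and old rats such cells held few Lpl UMIs: 19 and 2 in the young rats (300.2 against 131 CPM and 224 against 81.7), 19 in old replicate 1 (208 against 32.1) and 0 in old replicate 2 (0 against 30.4). Of the 30 cells of HFHF-old replicate 1, 21 were in the Lyz2 Trem2 cluster, the first of the 3 macrophage clusters described next, while 2392 of the 2914 macrophage-like cells of this rat were in the Cd163 Lyve1 cluster, and the shares above therefore compare cells that lie largely in different clusters. Markers of adipocytes, which use Fabp4, Lpl and Plin2, summed to 78 UMIs or 2.14 CPM in the macrophage-like cells of HFHF-old replicate 1. Of the 7 markers, Lep and Adrb3 were at 0 in every rat, while Adipoq, Plin1, Cidec, Car3 and Retn were detected in this one. The sums were 0.504 to 2.11 CPM in the young and old rats. In HFHF-old replicate 2, 1 UMI gave 15.9 and Adipoq and Plin1 were at 0. These sums are over the whole class, and the markers were not read in the Fabp4-rich cells alone.

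**Figure D3:**
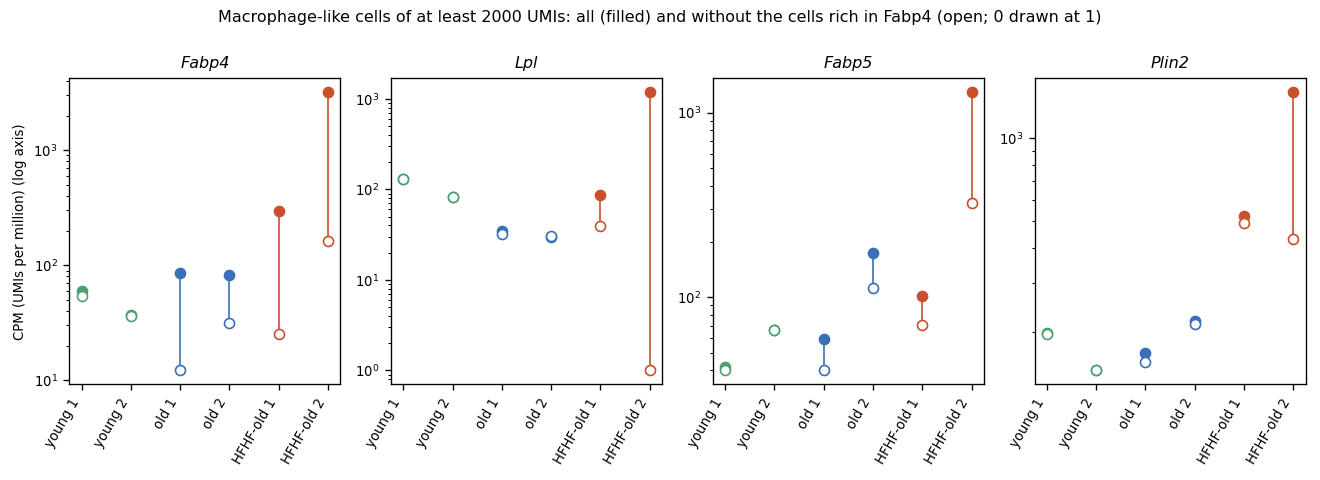
Levels of Fabp4, Lpl, Fabp5 and Plin2 (CPM, log axis) by rat in the macrophage-like cells of at least 2000 UMIs, for all of them (filled) and without the Fabp4-rich cells (open, with a level of 0 drawn at 1). In HFHF-old replicate 1 Fabp4 goes from 298 to 25.5 and Plin2 from 523 to 496.

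On the scaled counts, macrophage-like cells had higher Apoe, Pltp, Abca1, Abcg1 and Fabp4 and lower Lpl in both old rats than in both young rats. These were 6 of the 9 genes, while 46.1% of all genes tested did not overlap. In the cells of at least 2000 UMIs Abcg1 overlapped before scaling, at 46.6 and 25.3 CPM in the young rats and 75.3 and 44.7 in the old rats. The log2 fold changes were 1.84 (SE 0.67, adjusted p = 0.501) for Apoe, 1.15 (SE 0.38, adjusted p = 0.475) for Pltp, 0.75 (SE 0.42, adjusted p = 0.717) for Abca1, 0.84 (SE 0.35, adjusted p = 0.590) for Abcg1, 0.68 (SE 0.78, adjusted p = 0.934) for Fabp4 and -1.54 (SE 0.85, adjusted p = 0.711) for Lpl. DESeq2 called Apoe, at 1.80 (SE 0.42, adjusted p = 0.0132). The Fabp4-rich cells held 86.0% and 61.8% of the Fabp4 UMIs of the old rats and 9.90% and 2.76% of those of the young rats, and at a clustering resolution of 0.5 the log2 fold change of Fabp4 was -0.66.

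The macrophage-like cells fell into 3 clusters, named here by 2 of their leading genes: a Lyz2 Trem2 cluster (6021 cells), a Fcna Ccl24 cluster (4192) and a Cd163 Lyve1 cluster (3389, of which 2392 came from HFHF-old replicate 1). Apoe was at 3660 and 3391 CPM in the young rats and 15486 and 14855 in the old rats in the Lyz2 Trem2 cluster, at 11449 and 9191 against 32138 and 32144 in the Fcna Ccl24 cluster and at 11057 and 7035 against 27639.9 and 26078 in the Cd163 Lyve1 cluster. In all 3 clusters both old rats lay above both young rats, with log2 fold changes of 2.17 (SE 0.53, adjusted p = 0.192), 1.71 (SE 0.46, adjusted p = 0.229) and 1.68 (SE 0.36, adjusted p = 0.105). Pltp had the same order of groups, with log2 fold changes of 1.48 (SE 0.23, adjusted p = 0.0902), 0.97 (SE 0.25, adjusted p = 0.209) and 0.80 (SE 0.26, adjusted p = 0.363). Abca1 was higher in both old rats on the scaled counts in each cluster, with log2 fold changes of 0.87, 0.44 and 0.43.

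Lpl had the reverse order. In the Lyz2 Trem2 cluster it was at 167 and 91.4 CPM in the young rats, 35.0 and 37.3 in the old rats and 443 in HFHF-old replicate 1, in the Fcna Ccl24 cluster at 129 and 67.1 CPM in the young rats, 34.0 and 32.5 in the old rats and 34.4 in HFHF-old replicate 1 and in the Cd163 Lyve1 cluster at 85.7 and 81.3 CPM in the young rats, 36.7 and 51.2 in the old rats and 41.8 in HFHF-old replicate 1. The log2 fold changes of old against young were -1.76 (SE 0.29, adjusted p = 0.0902), -1.51 (SE 0.33, adjusted p = 0.162) and -0.89 (SE 0.29, adjusted p = 0.380). Fibroblast markers, whose cells carry Lpl, summed to 753 and 219 CPM in the macrophage-like cells of the young rats and 242 and 111 in those of the old rats, and their part in the Lpl values was not tested. Fabp4 was higher in both old rats in the Lyz2 Trem2 cluster, at 51.9 and 37.9 CPM in the young rats, 166 and 98.4 in the old rats and 2037 in HFHF-old replicate 1. The log2 fold change was 1.61 (SE 0.28, adjusted p = 0.105). On the scaled counts Fabp4 overlapped between the groups in the other 2 clusters, where HFHF-old replicate 1 held 49.1 and 80.3. In CPM the Cd163 Lyve1 cluster had the opposite order, with 62.4 and 49.7 in the young rats and 46.9 and 7.06 in the old rats. Of the Fabp4-rich cells, which held most of the Fabp4 UMIs of the old rats and of HFHF-old replicate 1, 4 of 7 and 6 of 7 in the old rats and 21 of 30 in HFHF-old replicate 1 were in the Lyz2 Trem2 cluster. In HFHF-old replicate 1 both Fabp4 and Lpl were higher in the Lyz2 Trem2 cluster than in the other 2.

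EdgeR called 0 of 9 genes in each cluster for age, against 0.0505%, 0.0286% and 0.362% of all genes. The counts at an unadjusted p under 0.05 were 6, 4 and 3, against 12.9%, 11.9% and 8.09% of all genes, and DESeq2 called 5, 2 and 1, against 1.5%, 0.888% and 0.519%. Of the 9 genes, 6, 5 and 5 did not overlap between the groups on the scaled counts, against 44.8%, 42.6% and 38.1% of all genes. Plin2, read in HFHF-old replicate 1 alone, was at 668, 430.3 and 511 CPM in the 3 clusters, above the 139 to 219 of the young and old rats in all 3, and with 1 rat this difference has no replicate check.

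**Figure D4:**
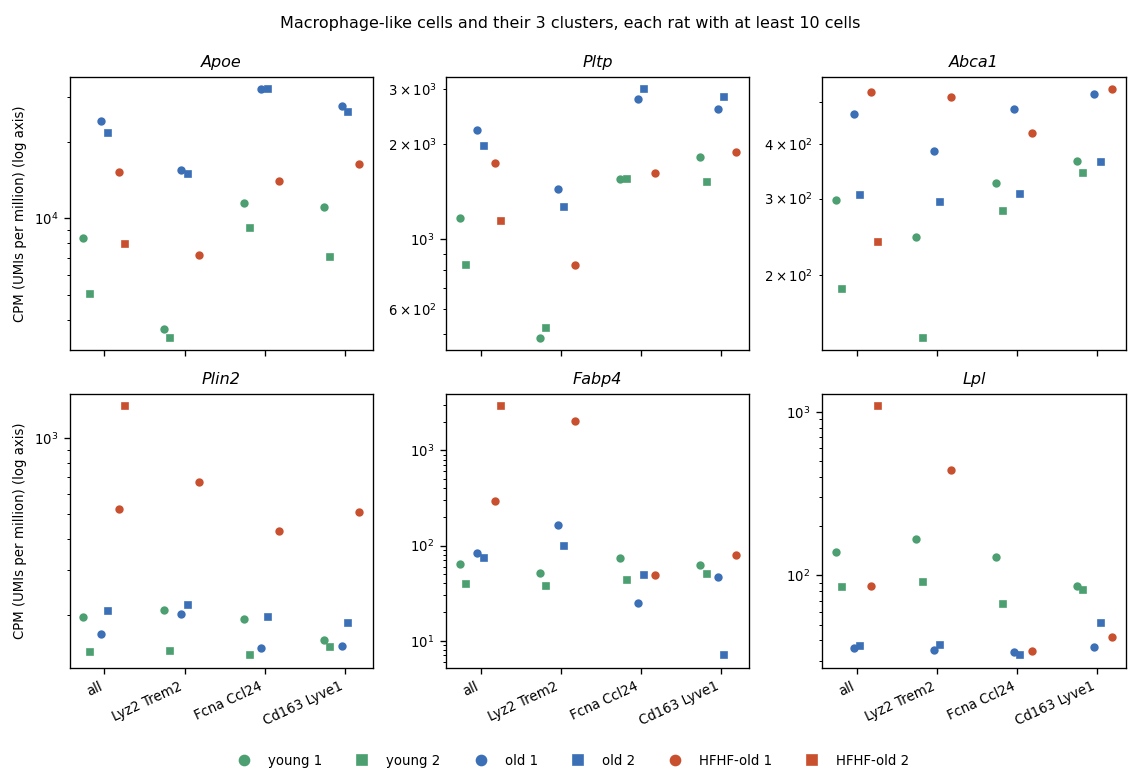
Levels of the lipid genes (CPM, log axis) in the 3 macrophage clusters, 1 point per rat. Apoe is higher and Lpl lower in both old rats than in both young rats in each cluster, and Plin2 in HFHF-old replicate 1 is at 668, 430.3 and 511.

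In fibroblast-like cells Lpl was at 2038 and 1354 CPM in the young rats, 1742 and 2257 in the old rats and 779 and 1431 in the HFHF-old rats. Neither HFHF-old rat reached the level of either old rat, a log2 fold change of -0.88 (SE 0.43, adjusted p = 0.751), and -1.30 (adjusted p = 0.533) without HFHF-old replicate 2, and HFHF-old replicate 2 overlapped the young rats. The class was made of different clusters in these groups: the Spon1 C7 cluster, which held the most Lpl, made up 51.8% and 37.1% of the fibroblast-like cells of the old rats and 18.8% and 23.7% of those of the HFHF-old rats, and within the 3 clusters described below the log2 fold changes were -0.24, -0.16 and -0.72. Pltp was at 111 and 154 CPM in the young rats, 333 and 419 in the old rats and 160.2 and 310.5 in the HFHF-old rats, a log2 fold change of -0.70 (SE 0.34, adjusted p = 0.752) for the diet, -1.17 (adjusted p = 0.365) without HFHF-old replicate 2, and 1.52 (SE 0.35, adjusted p = 0.320) for age. These were the 2 of 9 genes whose old and HFHF-old rats did not overlap (37.8% of all genes). Between the old and the young rats 6 of 9 did not overlap (36.6% of all genes). Apoe was at 464 and 1227 CPM in the young rats, 1529 and 2033 in the old rats and 963 and 1591 in the HFHF-old rats, a log2 fold change of 1.09 (SE 0.51, adjusted p = 0.816) for age. DESeq2 called Pltp for age, at 1.54 (SE 0.36, adjusted p = 0.00401).

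Plin2 ranged from 69.3 to 148 and Abca1 from 66.4 to 175, both with overlapping groups. Fibroblast-like Cd36 (2.85 to 11.9) was above the lymphocytes of the same rat in 6 of 6 rats, by 1.64 to 23.7-fold, and in the Spon1 C7 cluster by 2.04 to 120.3-fold. Fabp4 (0.845 to 14.2) was above them in 4 of 6 rats, at 0.668 to 1.67 times their level, Fabp5 (3.06 to 30.2) in 3 of 6, at 0.457 to 2.18 times, and Abcg1 in 0 of 6. For age these 4 had log2 fold changes of 0.78 (adjusted p = 0.956), -1.58 (adjusted p = 0.768), -1.41 (adjusted p = 0.920) and 2.04 (adjusted p = 0.622). Lymphocytes held more Abcg1 than these cells. T cell markers summed here to 20.4 and 29.0 CPM in the young and 45.3 and 72.0 in the old rats. NK cell markers went the other way, with 122 and 125 in the young and 76.6 and 67.9 in the old rats. The part of such cells in the Abcg1 values was not tested. Markers of macrophages, which carry Apoe and Pltp, summed to 419 and 306 CPM in the fibroblast-like cells of the young rats, 248.7 and 334 in those of the old rats and 467 and 17.7 in those of the HFHF-old rats, with 0 of 10 markers at 0.

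The fibroblast-like cells formed 3 clusters, led by Tnfrsf11b and Gfpt2 (4645 cells), by Clec3b and Postn (3123) and by Spon1 and C7 (2347). These genes lead against all other cells. Against the other fibroblast-like cells the Clec3b Postn cluster was led by genes of NK and T cells (Ccl5, Prf1 and Nkg7 among them), and the part of such cells in its values was not tested. Lpl was highest in the Spon1 C7 cluster in each rat, at 4775 and 2199 CPM in the young rats, 2892 and 4257 in the old rats and 1994 and 2556 in the HFHF-old rats, against 509 to 1653 in the Tnfrsf11b Gfpt2 cluster and 569 to 1466 in the Clec3b Postn cluster. Its log2 fold changes for the diet were -0.24 (SE 0.46, adjusted p = 1), -0.16 (SE 0.43, adjusted p = 0.921) and, in the Spon1 C7 cluster, -0.72 (SE 0.50, adjusted p = 0.936). Pltp was higher in both old than both young rats in all 3 clusters, with log2 fold changes of 1.64 (SE 0.31, adjusted p = 0.274), 1.65 (SE 0.32, adjusted p = 0.357) and 0.94 (SE 0.37, adjusted p = 0.747), and for the diet it had -0.43 (SE 0.30, adjusted p = 1), -0.80 (SE 0.31, adjusted p = 0.629) and -0.46 (SE 0.37, adjusted p = 0.936). EdgeR called 0 of 9 genes in the 3 clusters for the diet (0%, 0% and 0.00862% of all genes) and for age (0.0356%, 0% and 0.0345%). At an unadjusted p under 0.05 these were 0, 1 and 0 for the diet (4.04%, 7.7% and 5.91% of all genes) and 4, 2 and 2 for age (5.38%, 6.28% and 6.14%). DESeq2 called 0, 0 and 0 for the diet (0.248%, 0.223% and 0.575%) and 1, 1 and 0 for age (0.357%, 0.463% and 0.638%). For age 6, 5 and 3 of the 9 did not overlap, against 33.7%, 35.9% and 37.8% of all genes. For the diet 0, 2 and 2 did not overlap, against 33.9%, 42.4% and 34.9%, and these 4 values were lower in both HFHF-old rats on the scaled counts, for Fabp4 (-1.79, but 2.75 at resolution 0.5) and Pltp in the Clec3b Postn cluster and for Lpl and Apoe (-0.52) in the Spon1 C7 cluster.

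**Figure D5:**
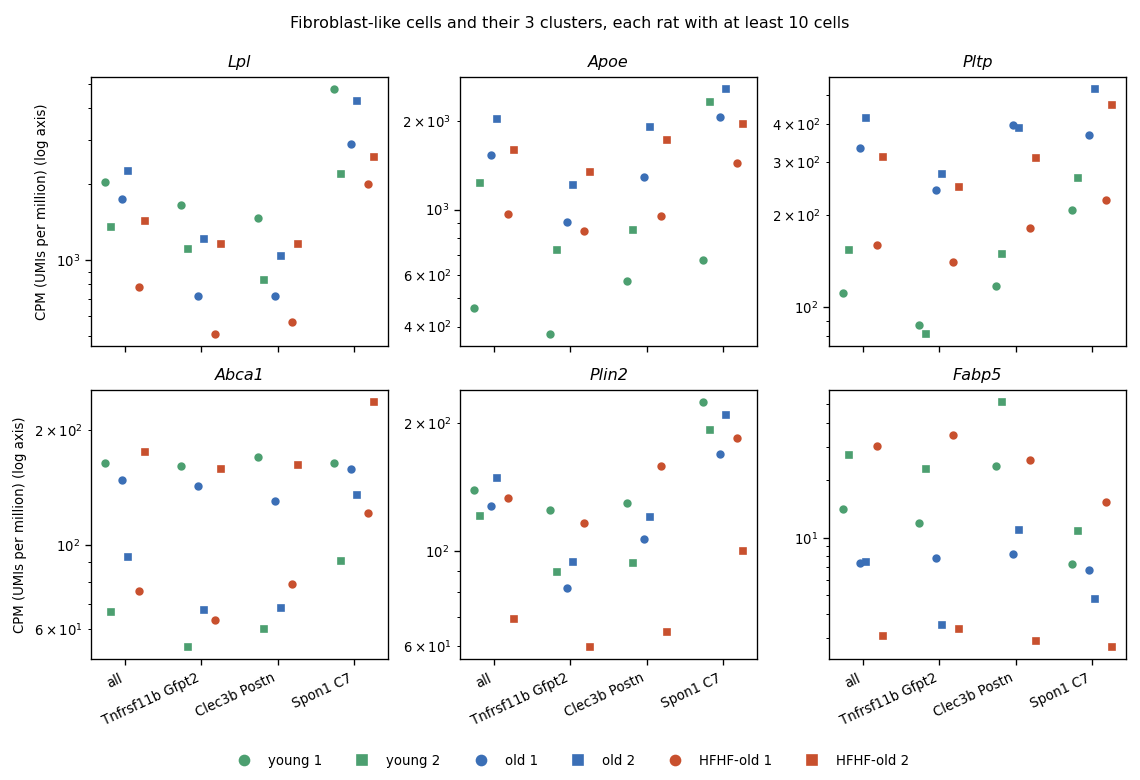
Levels of the lipid genes (CPM, log axis) in the 3 fibroblast clusters, 1 point per rat. The Spon1 C7 cluster has the highest Lpl in each rat, from 1994 to 4775, and both old rats have higher Pltp than both young rats in every cluster.

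In endothelial-like cells (100 to 609 per rat) the levels of Fabp4 and Cd36 overlapped between the groups of each comparison. Fabp4 was at 9094 and 6989.9 CPM in the young rats, 3511 and 10019.7 in the old rats and 5785 and 3770.0 in the HFHF-old rats, a log2 fold change of -0.55 (SE 0.68, adjusted p = 0.975) for the diet, and the 2 old rats differed more from each other than the groups did. Levels of Cd36 were 1411 and 581 CPM in the young rats, 759 and 842 in the old rats and 880.3 and 807 in the HFHF-old rats, with a log2 fold change for the diet of 0.04 (SE 0.44, adjusted p = 0.996). Fabp5 was at 1325 and 1334 CPM in the young rats, 431 and 938 in the old rats and 1127 and 327 in the HFHF-old rats, lower in both old than both young rats with a log2 fold change of -0.96 (SE 0.65, adjusted p = 0.996). Lpl was at 422 and 93.5 CPM in the young rats, 126 and 138 in the old rats and 219.7 and 184 in the HFHF-old rats and higher in both HFHF-old than both old rats, a log2 fold change of 0.59 (SE 0.60, adjusted p = 0.975), and 0.72 without HFHF-old replicate 2, though both HFHF-old rats were below young replicate 1. Markers of fibroblasts, which carry Lpl, summed in these cells to 3648 and 1296 CPM in the young rats, 788 and 414 in the old rats and 2395.5 and 247 in the HFHF-old rats, so that HFHF-old replicate 2 was below both old rats, and 1 of the 8 markers (Col1a2) was at 0 in old replicate 2 and HFHF-old replicate 2. Their part in the Lpl values was not tested. The efflux transporter Abca1 was at 122 and 99.5 CPM in the young rats, 165 and 165 in the old rats and 192 and 282 in the HFHF-old rats, with no overlap between old and HFHF-old rats or between young and old rats. Its log2 fold changes were 0.49 (SE 0.29, adjusted p = 0.974) for the diet, 0.21 without HFHF-old replicate 2, and 0.56 (SE 0.29, adjusted p = 0.996) for age. In all, 2 of 9 genes did not overlap for the diet and 4 of 9 for age, against 28.3% and 34.7% of all genes, the 4 including Apoe with 0.49 (SE 0.56, adjusted p = 0.996) and Abcg1 with 0.33 (SE 0.46, adjusted p = 0.996). Apoe (966 to 2818) and Pltp (74.5 to 400.01) were lowest in HFHF-old replicate 2, where the macrophage markers also had their lowest sum, 67.98 CPM with 5 of 10 at 0 against 976 to 3339.5 in the other rats, and the part of these markers in the 2 values was not tested.

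Acinar-like cells, the cells that secrete digestive enzymes, held Lpl at 64.3 and 65.4 CPM in the young rats, 46.6 and 40.0 in the old rats and 65.6 and 37.5 in the HFHF-old rats. This was above the lymphocytes of the same rat in 6 of 6 rats, by 4.10 to 22-fold. The highest ratio was that of HFHF-old replicate 2, with 10 Lpl UMIs in 52 cells. The log2 fold change for the diet was 0.26 (SE 0.37, adjusted p = 0.994) and 0.34 without HFHF-old replicate 2. Markers of fibroblasts, which carry Lpl, summed in acinar-like cells to 480 and 67.3 CPM in the young rats. They summed to 248 and 47.4 in the old rats and 256 and 11.3 in the HFHF-old rats, and their part in the Lpl values was not tested. Acinar-like Apoe was at 294 and 85.9 CPM in the young rats, 502 and 2854 in the old rats and 573 and 0 in the HFHF-old rats, and in HFHF-old replicate 2 it was 0 of 266376 UMIs, which allows up to 11.3 CPM. This library also had all 10 macrophage markers at 0 in its acinar-like cells. In old replicate 2, where Apoe was highest, 171 of 233 cells had a UMI, 10 cells held 39.4% of the UMIs and the macrophage markers summed to 80.7 CPM. The log2 fold changes of Apoe were 3.58 (SE 1.505, adjusted p = 0.9996) for age and -2.78 (SE 1.45, adjusted p = 0.994) for the diet (-1.87 without HFHF-old replicate 2). Cd36 and Abcg1 passed the filter on low counts in neither comparison. The groups did not overlap for 2 of the 7 genes tested for the diet and 5 of 7 for age, against 29.2% and 28.2% of all genes. The 2 genes, Lpl and Apoe, overlapped before scaling. For age the 5 were Apoe, Lpl with -0.30, Fabp4 with -2.14, Fabp5 with -0.78 and Plin2 with 1.51 on the log2 scale, each at an adjusted p of 0.9996.

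In islet-like cells (the hormone-secreting cells) 7 of the 9 genes, Apoe, Cd36, Fabp4, Fabp5, Plin2, Pltp and Abcg1, were below the lymphocytes in 5 of 5 rats with enough cells. For Apoe, Cd36, Fabp4 and Pltp this level is read as background. Fabp5 is left out of this reading, since islet-like cells held at most 0.207 times the Fabp5 level of the lymphocytes. Plin2 and Abcg1 are left out too. Islet-like cells held 6.91 to 21.3 and 15.6 to 31.1 CPM of them, while acinar-like cells held 0 to 9.87 and 0 to 4.17. Abca1 lay above the lymphocytes in 5 of 5, by 1.15 to 2.71-fold. It was at 69.3 and 38.3 CPM in the young rats, 33.1 and 32.8 in the old rats and 59.0 in HFHF-old replicate 1 (exact Poisson 95% interval 53.6 to 64.7, counting error only). Lpl in alpha-like cells was at 40.3 and 43.7 in the young rats, 33.2 and 19.9 in the old rats and 25.1 in HFHF-old replicate 1 (10 cells), and in beta-like cells at 2.54, 0.702, 3.31, 2.28 and 5.58 in the same order, so that alpha-like cells were higher in 5 of 5 rats. For age, 0 of 9 genes were called in islet-like cells, 0 of the 8 tested in alpha-like cells (0.171% of all genes) and 0 of 9 in beta-like cells (0.134%) by edgeR. At an unadjusted p under 0.05 there were 1 in alpha-like (5.12% of all genes) and 1 in beta-like cells (4.63%), and DESeq2 called 0 in both (0.174% and 0.153%). In islet-like cells 4 of 9 did not overlap on the scaled counts, against 33.3% of all genes, namely Fabp4 with a log2 fold change of -2.18 (SE 0.47, adjusted p = 0.179) at 0.492 to 5.91 CPM, Lpl with -0.60 (SE 0.33, adjusted p = 0.859), Plin2 with 0.75 (SE 0.30, adjusted p = 0.689) and Abcg1 with -0.08 (SE 0.28, adjusted p = 0.987). In CPM Plin2 overlapped (13.6 and 6.91 in the young and 11.9 and 11.5 in the old rats), while Abca1 and Fabp5, which overlapped on the scaled counts, were lower in both old rats. The mix of islet-like cells also differed. Alpha-like cells were 361 of 539 and 213 of 417 in the young rats and 98 of 255 and 365 of 1075 in the old rats. Fabp4 and Abcg1, like Lpl, were higher in alpha-like than in beta-like cells in 5 of 5 rats, and Plin2 in 4. The part of this mix in the changes with age was not tested.

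Of 5 further lists, genes of fatty acid uptake and activation (18), lipid droplets and triglyceride turnover (20), sterol efflux and lipoprotein handling (15), scavenger receptors (9) and nuclear receptors of lipid metabolism (9), edgeR called 0 genes higher and 0 lower for the diet in macrophage-like, fibroblast-like, endothelial-like and acinar-like cells and the fibroblast clusters. In macrophage-like cells the median log2 fold change for the diet was 0.37 over 13 genes tested for uptake, 0.39 over 13 for droplets, 0.49 over 10 for efflux, 0.41 over 7 scavenger receptors and 0.40 over 7 nuclear receptors, beside -0.05 over all genes. This fit includes HFHF-old replicate 2, with 11 macrophage-like cells, of which 1 held 32.5% of their UMIs. Values of the lists without this rat were not computed. In fibroblast-like cells these medians lay between -0.21 and 0.30, beside 0.04, in endothelial-like cells between -0.23 and 0.54, beside 0.005, and in acinar-like cells, where 5 or 6 genes of 4 lists were tested, between -0.13 and 0.35, beside -0.06. The single nuclear receptor gene tested there had -0.40. Among the medians of these classes the highest, 0.54, was that of the scavenger receptors in endothelial-like cells. The scavenger receptors had 0.56 in the Tnfrsf11b Gfpt2 cluster. For age, the single gene called on these lists was G0s2, an inhibitor of the lipase that starts triglyceride breakdown. It rose in islet-like cells, from 2.57 and 1.81 CPM in the young to 7.11 and 11.5 in the old rats (log2 fold change 2.64, SE 0.39, adjusted p = 0.0414), and in beta-like cells, from 1.81 and 0.936 to 10.9 and 15.1 (2.98, SE 0.47, adjusted p = 0.0181). HFHF-old replicate 1 stood at 16.9 and 19.9. The call was lost in both classes with the replicate number as a block (adjusted p = 0.0751 and 0.223) and without a filter on low counts (0.106 and 0.113). It was also lost without young replicate 1 (adjusted p = 0.0987 and 0.693) and without young replicate 2 (0.131 and 0.767), and in islet-like cells at resolution 0.5 (0.120), with the members and lists kept in the clustering (0.112), and without HFHF-old replicate 1, which there leaves only the groups compared (0.0581).

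Over 85 sums of a class in a library, from 15 classes that share libraries and depth, the genes with the most similar pattern were found by Pearson's r of log levels among 10505 genes, as a description. Lpl was closest to C1s (0.877), Eln and C1r, Cd36 to Scarf1 (0.925), Hlx and Plxnd1, and Fabp4 to Ednrb (0.93), Apold1 and Id1. Fabp5 was closest to Cd36 (0.883), the single pair within the 9 genes among the first 3 genes of each. Apoe was closest to Gsta1 (0.844), Pdpn and Ccl7, Plin2 to Rbpj (0.912), and Abcg1 to Rasa4 (0.801), Slc36a4 and Prkcb.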

How the data were processed

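Single-cell RNA sequencing was done on the pancreas of 6 rats, 1 library each. The deposited values are whole-number counts of UMIs per gene and barcode that the authors made with Cell Ranger (5.0.0 per the file headers) on the genome build Rnor_6.0, given in the submitters' processing notes. The files held 78024 barcodes. Barcodes with fewer than 200 genes, over 25% mitochondrial UMIs or a gene number in the top 1% were left out, which left 75201, with a median of 2537 to 9391.5 UMIs per cell.

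Counts were scaled to the total of each cell and log-transformed, and 2000 variable genes (80 genes, namely the members and the further lists, held out), 10 principal components (20 for secretory cells) and 15 neighbours gave 29 clusters with leidenalg 0.10.2 at resolution 1. Clusters were named for the class whose markers had the highest mean log2 fold, with at least 3 markers and 50% of them at a log2 fold of at least 1 (0.5 for secretory cells), and clusters with over 99% of cells from 1 library stayed unnamed. Macrophage and fibroblast clusters are called by their leading genes. Against the other fibroblast-like cells the Clec3b Postn cluster is led by NK genes and passed 0 of 6 markers of the Pi16 list. Doublets were kept, and leaving out those most like simulated doublets (0.8% per 1000 barcodes) was an alternative.

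UMIs were summed per rat and class (at least 10 cells) and tested with edgeR 4.0.16 (TMM, filterByExpr, quasi-likelihood, all 6 rats in 1 fit), with Benjamini-Hochberg adjustment, in R 4.3.3, and a contrast with fewer than 2 rats in a group was not tested. DESeq2 1.42.0 was an alternative. Scaled counts are those after TMM. Intervals are 95% and cover counting error, and the floor for a count of 0 is 3 counts. The edgeR step was also run on simulated data with known fold changes. Most of the smaller changes simulated there were not called, so a gene left uncalled is not shown to be unchanged. Values in the 5 classes are given for a part of the 9 genes in each class, with fold changes for genes whose groups did not overlap, and list genes only where called. The members and lists were chosen with earlier results of these data known. The genes most like Pltp and Abca1, and some of those most like Plin2, are not reported here.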

Additional observations from a re-analysis of the deposited data

Results flagged for a closer look

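Lpl, Fabp4 and Abcg1 had fold changes of opposite sign in different classes, with both rats of one group beyond both of the other on the scaled counts. The differences between the classes were not tested. For HFHF-old against old, the log2 fold changes of Lpl were 3.52 in macrophage-like, 0.59 in endothelial-like, 0.26 in acinar-like and -0.88 in fibroblast-like cells. Without HFHF-old replicate 2 they were 1.10, 0.72, 0.34 and -1.30. All 68 macrophage-like Lpl UMIs of that rat were in 1 cell, and the acinar-like levels overlapped before scaling. The Spon1 C7 cluster, with the most Lpl, made up 51.8% and 37.1% of the fibroblast-like cells of the old rats. In the HFHF-old rats it made up 18.8% and 23.7%. For old against young, Fabp4 had 0.68 in macrophage-like cells and -1.58, -2.14 and -2.18 in fibroblast-like, acinar-like and islet-like cells, where it lay near or below the level of the lymphocytes. At a clustering resolution of 0.5 the macrophage-like value was -0.66, of the same sign as the others. Abcg1 had 0.84 in macrophage-like, 2.04 in fibroblast-like and 0.33 in endothelial-like cells and -0.078 in islet-like cells for the same comparison.

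Markers of adipocytes were found outside the classes compared. In the cluster led by Scd and Car3, which was left unnamed, they summed to 469.42 UMIs per 1000000 UMIs in young replicate 1 and to at most 2.0 in the other 5 rats.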

How the results depend on the processing

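EdgeR called 0 of the 9 genes in each comparison, and in 173 repeats of these counts under other settings the count stayed at 0, while in 17 it did not. DESeq2 called 2 for the diet in macrophage-like cells, 1 for age in macrophage-like cells, 1 for age in fibroblast-like cells, 8 for age over the 3 macrophage clusters and 2 for age over the 3 fibroblast clusters. Without a filter on low counts 1 was called in acinar-like cells for the diet and 1 for age (Apoe in both), 3 for age in the macrophage clusters, 1 for the diet and 2 for age in the fibroblast clusters. The older quasi-likelihood method called 1 for age in the macrophage clusters. Leaving out each rat in turn gave 0 to 2 for the diet in macrophage-like cells (2 without HFHF-old replicate 1, Fabp4 and Lpl), and 0 to 1 for the diet in acinar-like cells (Apoe) and the fibroblast clusters (Fabp4 in the Clec3b Postn cluster), both without HFHF-old replicate 1, and for age in islet-like cells (Fabp4, without old replicate 1) and the macrophage clusters (Lpl in the Fcna Ccl24 cluster, without young replicate 2). A rat left alone in its group is assumed to vary like the others. Leaving out doublets, fitting 2 groups, keeping the genes in the clustering and resolution 0.5 gave 0 wherever a fit could be made. Resolution 0.5 gave 1 macrophage cluster and 4 macrophage-like cells in HFHF-old replicate 2, so neither the diet in that class nor its clusters could be fitted. It turned the sign of Fabp4 for age in macrophage-like cells (-0.66), of Fabp4 for the diet in the Clec3b Postn cluster (2.75) and of Cd36 for age there (0.034). Of 1022 fold changes compared, the other 989 kept side and sign and 30 passed the threshold. The cause of these differences was not tested.

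A replicate block on the labelled numbers called 2 for age in the macrophage clusters (Lpl and Abcg1 in the Fcna Ccl24 cluster) and 0 elsewhere. Same-numbered rats deviated together with correlations of -0.12 to 0.22 over 2 pairs, so the numbers are not shown to pair the rats. Crossing the pairs in endothelial-like cells, chosen after seeing the data, called 0 of 9 and 0 of all genes. Over all genes, calls ranged over settings from 0 to 40 (diet) and 0 to 33 (age) in macrophage-like cells, 0 to 124 and 0 to 152 in fibroblast-like, 0 to 52 and 0 to 11 in endothelial-like and 0 to 34 and 0 to 14 in acinar-like cells, from 6 to 286 in islet-like, 0 to 139 in alpha-like and 0 to 66 in beta-like cells, from 10 to 551 over the macrophage clusters, and from 0 to 214 and 0 to 268 over the fibroblast clusters. Group levels moved in 15 of 135 cases without doublets, and shares of cells with a UMI in 89 of 135 after thinning. A move was a change of more than 1 SD between the rats of the group. The islet-like cells of the HFHF-old group had 1 rat. There the levels were judged by the counting interval and every share was counted as moved, whatever its value.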
